A study of Mus musculus with 19 samples.

Results

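The serpin superfamily of the mouse liver is described here, taken as every gene whose symbol consists of Serpin, a clade letter from a to i, a number and at most 1 further letter. This rule found 63 of the 49315 genes in the count tables, and 5 serpin pseudogene entries with other symbol endings fell outside it. The livers came from 19 female mice on the C57BL/6N background, and the knockout line was strain C57BL/6N-Atm1Brd Gramd1ctm1a(KOMP)Wtsi/JMmucd. Gramd1c+/+ and Gramd1c-/- littermates of heterozygous crosses were fed 0.02% (low) or 0.2% (high) cholesterol by weight for 4 weeks, starting at 8 weeks of age. There were 5 Gramd1c+/+ and 4 Gramd1c-/- mice in the low-cholesterol groups, and 5 of either genotype in the high-cholesterol groups. Gramd1c encodes Aster-C, a protein that moves cholesterol from the plasma membrane to the endoplasmic reticulum. The Gramd1c-/- mice carry a knockout-first cassette in every tissue, so that a liver value in these mice cannot be tied to the hepatocyte alone. Each library came from 1 mouse.

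Serpins are proteins of a shared fold that mostly inhibit serine proteases. The protease cuts an exposed reactive centre loop, the loop snaps into the body of the serpin, and the protease stays covalently trapped, so that each inhibitor molecule works once. The residue before the cut, called P1, largely decides which protease is caught. The liver is the main source of the plasma serpins, among them alpha-1-antitrypsin (clade A), antithrombin (clade C), antiplasmin (clade F) and C1 inhibitor (clade G). Some members inhibit nothing and carry hormones or act as chaperones, and clade B serpins mostly stay inside the cell. Mice have many more clade A and B genes than humans, through repeated duplication.

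The coding stretch of the reactive centre loop is shown for the abundant Serpina1 and Serpina3 paralogs, because the protease targets are set there and these close copies differ there at a higher rate than over the whole coding sequence. Each stretch runs over 75 bases from the codon of the conserved hinge glycine, 5′ to 3′ on the coding strand, and the capitals mark the codon 14 residues after that glycine, the P1 position. The sequences were read from the GENCODE M21 transcripts of build GRCm38. The Serpina1 genes lie on the minus strand of chromosome 12, and their stretches span chr12:103853756-103853830 (Serpina1a), chr12:103728323-103728397 (Serpina1b), chr12:103895093-103895167 (Serpina1c), chr12:103763761-103763835 (Serpina1d) and chr12:103947099-103947173 (Serpina1e), each within 1 coding exon.
Serpina1a: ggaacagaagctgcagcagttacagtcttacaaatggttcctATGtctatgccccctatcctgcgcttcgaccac
Serpina1b: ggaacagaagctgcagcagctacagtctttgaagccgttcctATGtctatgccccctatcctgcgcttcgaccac
Serpina1c: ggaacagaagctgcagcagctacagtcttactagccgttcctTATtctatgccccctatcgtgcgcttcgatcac
Serpina1d: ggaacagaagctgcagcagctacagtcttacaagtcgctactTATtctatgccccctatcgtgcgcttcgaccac
Serpina1e: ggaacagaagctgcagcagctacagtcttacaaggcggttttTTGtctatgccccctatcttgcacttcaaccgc
Serpina1a and Serpina1b have the same capitalised codon, Serpina1c and Serpina1d share another, and Serpina1e has its own. Over the whole coding sequence the 5 genes were 96.3 to 98.5% identical in pairs, whereas within the 75 bases Serpina1c and Serpina1d differed at 5 positions and Serpina1a and Serpina1e at 12.
The Serpina3 genes shown next lie on the plus strand at chr12:104345269-104345343 (Serpina3k), chr12:104393769-104393843 (Serpina3m) and chr12:104413448-104413522 (Serpina3n).
Serpina3k: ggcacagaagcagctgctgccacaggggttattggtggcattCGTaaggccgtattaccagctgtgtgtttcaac
Serpina3m: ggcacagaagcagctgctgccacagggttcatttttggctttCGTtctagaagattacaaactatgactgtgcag
Serpina3n: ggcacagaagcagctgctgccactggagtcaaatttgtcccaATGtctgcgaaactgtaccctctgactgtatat
Serpina3k and Serpina3m share the capitalised codon and differed at 22 of the 75 bases, and Serpina3k and Serpina3n differed at 33. In full coding identity Serpina3k was 92.6% like Serpina3m and 83.8% like Serpina3n.

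The copies also set how surely a read can be given to a gene. Of all 150-base windows of the transcript, the share found unchanged in another serpin transcript was 50.5% for Serpina1c, 40.7% for Serpina1a, 21.2% for Serpina1b, 20.2% for Serpina1d and 7.57% for Serpina1e. It was 0.262% for Serpina3k and 0.331% for Serpina3m, and no window of Serpina3c, Serpina3f, Serpina3g or Serpina3n was shared. How reads that fit several copies were counted is not given in the sources used here, so the split of reads among Serpina1a to Serpina1d is uncertain, and Serpina1e is the best separated of the 5.

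Total counts were 27149972 to 34669648 per mouse. Gramd1c measured 1.07 to 3.61 TPM (read counts scaled to gene length and library size) in the Gramd1c-/- and 9.56 to 15.99 TPM in the Gramd1c+/+ mice. The tissue label names gonadal fat and the cell type label names liver. Albumin, the defining hepatocyte transcript, lay at 44237 to 91159 TPM and the fat cell gene Adipoq at 9.46 TPM or less, and 7 adipocyte markers summed to 4.00 to 12.4 TPM in 18 mice. Replicate 5 of the high-cholesterol Gramd1c-/- mice stood apart on the first principal component (24.4% of the variance), at 83.1 where the other mice lay between -46.7 and 38.4. Replicate 2 of the low-cholesterol Gramd1c+/+ mice held 622 TPM summed over 7 adrenal cortex markers, against 1.76 to 4.60 TPM elsewhere, and 150.05 TPM over the 7 adipocyte markers. Replicate 3 of the high-cholesterol Gramd1c-/- mice held 216 TPM over 6 cholangiocyte markers, against 43.1 to 85.5 TPM elsewhere, and 79.96 TPM over 8 exocrine pancreas markers, against 16.8 to 50.7 TPM. Replicate 4 of that group held 1022 TPM over 8 Kupffer cell and macrophage markers, against 217 to 563 TPM. Log2 differences that such a library turned or moved strongly are also given without it, or with the level in that mouse.

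Serpin transcripts made up 2.16 to 4.18% of all TPM in a mouse. Clade A, with 25 genes, held 89.2% of the serpin total, and its genes other than Serpina7 lie together on chromosome 12. Clade F contributed 4.99%, clade G 2.07%, clade C 1.94% and clade D 1.65%. The 27 clade B genes together gave 0.122%, and clades E, H and I less than clade B. Of the 63 members 35 passed the filter on low counts, 15 had a mean of at least 100 TPM, and 11 had no count in any mouse (Serpina1f, Serpinb3a, Serpinb3b, Serpinb3c, Serpinb3d, Serpinb6d, Serpinb6e, Serpinb9f, Serpinb11, Serpinb13 and Serpini2). The remaining 17 had at most 12 counts in a mouse, the highest for Serpinb5, and levels below that were not measurable at this depth.

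**Figure D1:**
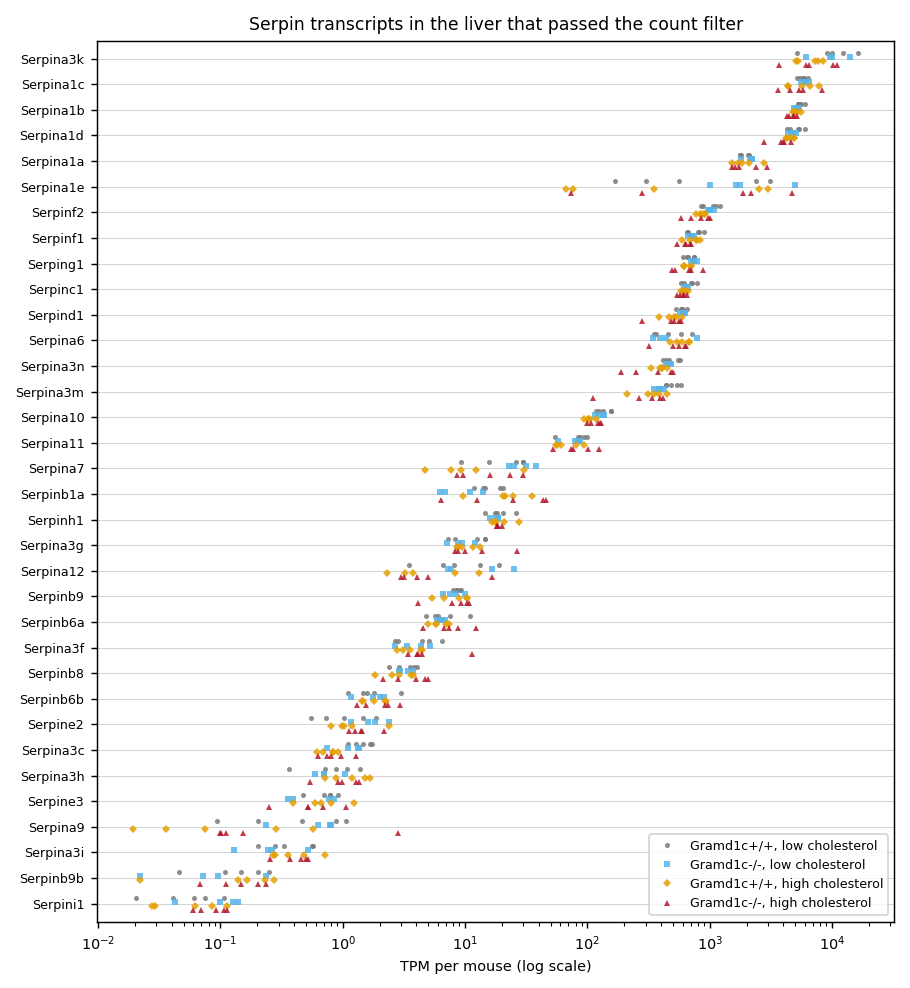
TPM on a log axis for each mouse (points, coloured and shaped by group) in 34 of the 35 serpins that passed the count filter, ordered by mean level. Clade A genes fill the top, from Serpina3k with a mean of 8618 TPM. Among the members averaging at least 100 TPM, Serpina1e has the widest row. The low-level Serpina9 has a wider one, from 0.0194 to 2.83 TPM.

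Alpha-1-antitrypsin, the plasma inhibitor of neutrophil elastase, is encoded in this strain by Serpina1a to Serpina1e, and their transcripts summed to 1.35 to 2.37% of all TPM. Serpina1c averaged 5713 ± 475 and 6063 ± 401 TPM (SD, n = 5 and 4) in the low-cholesterol Gramd1c+/+ and Gramd1c-/- groups and 5745 ± 1488 and 5536 ± 1782 TPM (SD, n = 5 each) in the high-cholesterol groups. Serpina1b averaged 5517 ± 315 and 5142 ± 199 TPM (SD, n = 5 and 4) in the low-cholesterol Gramd1c+/+ and Gramd1c-/- groups and 5091 ± 317 and 4705 ± 348 TPM (SD, n = 5 each) in the high-cholesterol groups. Serpina1d averaged 5089 ± 696 and 4721 ± 299.6 TPM (SD, n = 5 and 4) in the low-cholesterol Gramd1c+/+ and Gramd1c-/- groups and 4557 ± 342 and 3836 ± 663 TPM (SD, n = 5 each) in the high-cholesterol groups. Across the 19 mice the means of Serpina1c, Serpina1b and Serpina1d were 5748, 5112 and 4542 TPM, an order whose neighbours overlapped from mouse to mouse. Serpina1a was lower, at 1889.6 ± 159 and 2092 ± 190.4 TPM (SD, n = 5 and 4) in the low-cholesterol Gramd1c+/+ and Gramd1c-/- groups and 1987 ± 498 and 2029 ± 605 TPM (SD, n = 5 each) in the high-cholesterol groups.

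Serpina1e had the widest spread between mice of a group among the 35 serpins tested. Serpina1e measured 304, 3102, 169, 2399 and 555 TPM in the 5 low-cholesterol Gramd1c+/+ mice and 1648, 5021, 1782 and 1010.2 TPM in the 4 Gramd1c-/- mice on that diet. On high cholesterol it measured 2985, 353, 2528, 75.9 and 66.9 TPM in the 5 Gramd1c+/+ and 2189.8, 73.6, 277, 1859 and 4722 TPM in the 5 Gramd1c-/- mice. The 4 low-cholesterol Gramd1c-/- mice all lay at 1010.2 TPM or more, and the other 3 groups each held mice above and below that level. The ranges of all 4 groups overlapped. The highest mouse was 75.02 times the lowest, against 1.41 times for Serpina1b and 2.18 times for Serpina1d. As a share of the 5 paralogs' summed TPM, Serpina1e took between 0.444% in replicate 5 of the high-cholesterol Gramd1c+/+ mice and 21.2% in replicate 2 of the low-cholesterol Gramd1c-/- mice. The sum of the other 4 paralogs stayed between 13406 and 20696 TPM.

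**Figure D2:**
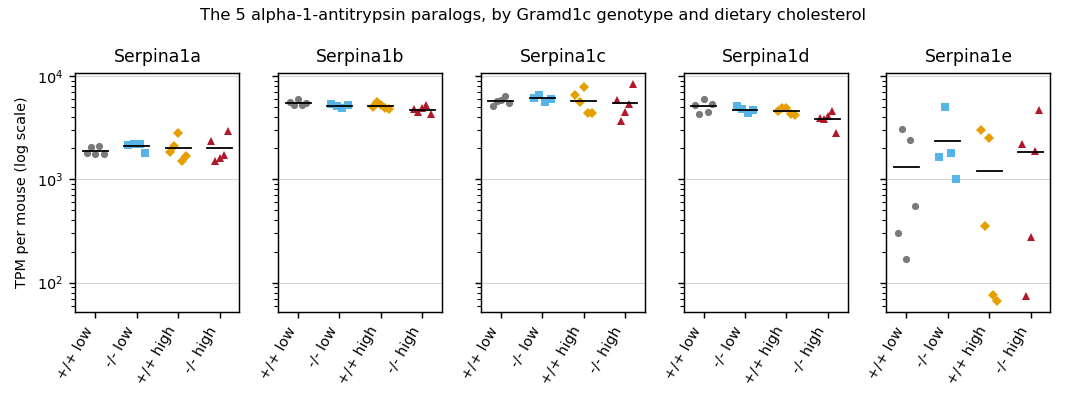
TPM per mouse on a log axis for Serpina1a to Serpina1e, with Gramd1c genotype (+/+ or -/-) and low or high dietary cholesterol along the bottom, points for mice and black lines for group means. The points of Serpina1b stay within a narrow band, while those of Serpina1e spread from 66.9 to 5021 TPM within overlapping groups.

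The spread was put on a common scale as the standard deviation of log2 CPM (counts scaled to library size, with 0.5 added) around the group means, pooled over the 4 groups. Serpina1e had an SD of 2.18, and 2 of the 15016 genes tested had a larger one. Serpina12 (vaspin, an adipokine that inhibits kallikrein 7) followed with 0.96, then Serpina9 with 0.88, Serpinb1a with 0.74, Serpina7 with 0.68 and Serpina3k with 0.56. At the other end lay Serpina10 and Serpina1b, both at 0.17, and Serpinc1 at 0.19. Without replicate 5 of the high-cholesterol Gramd1c-/- mice the SD was 0.56 for Serpina9, 0.84 for Serpina12 and 0.62 for Serpinb1a, and 2.11 for Serpina1e. With all mice, 7 of the 35 members were above the 90th percentile of the genes tested and 13 below the 50th. The median SD was 0.31 for the members and 0.27 for all genes tested.

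**Figure D3:**
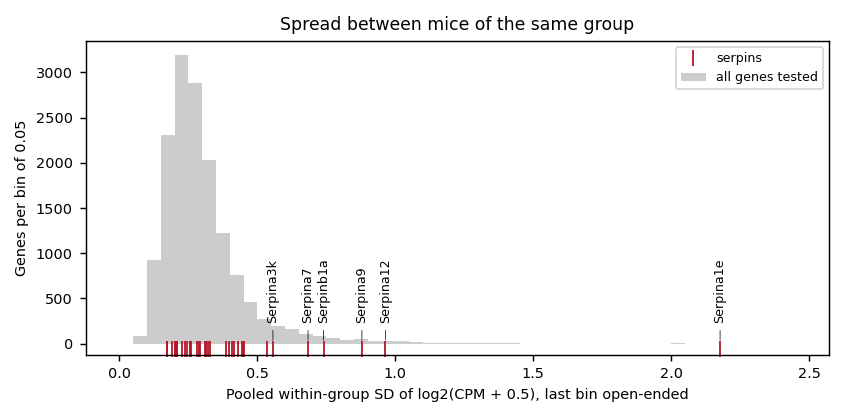
Pooled within-group SD of log2(CPM + 0.5), with grey bars counting all 15016 tested genes per bin of 0.05 and red ticks marking the 35 serpins. Most serpins lie within the bulk of the genes, and Serpina1e lies far from the other serpins, at 2.18.

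Among the Serpina3 genes, the mouse relatives of alpha-1-antichymotrypsin, Serpina3k, also known as contrapsin or kallikrein-binding protein, was the most abundant serpin transcript. Serpina3k measured 9143, 12389.7, 10044, 16335 and 5140.2 TPM in the 5 low-cholesterol Gramd1c+/+ mice and 6114, 9998, 9629.7 and 13917 TPM in the 4 Gramd1c-/- mice on that diet. On high cholesterol it measured 8473, 5274, 7688, 5083 and 7191 TPM in the 5 Gramd1c+/+ and 10144, 3661, 6426, 6129 and 10966 TPM in the 5 Gramd1c-/- mice. The highest value, in a low-cholesterol Gramd1c+/+ mouse, was 4.46 times the lowest, in a high-cholesterol Gramd1c-/- mouse, and all 4 groups overlapped. Serpina3n, an acute phase serpin that inhibits leukocyte proteases, averaged 487 ± 69.8 and 461 ± 17.97 TPM (SD, n = 5 and 4) in the low-cholesterol Gramd1c+/+ and Gramd1c-/- groups and 398 ± 41.9 and 359 ± 137 TPM (SD, n = 5 each) in the high-cholesterol groups. Serpina3m averaged 498 ± 63.6 and 389 ± 28.9 TPM (SD, n = 5 and 4) in the low-cholesterol Gramd1c+/+ and Gramd1c-/- groups and 343 ± 89.6 and 303 ± 121 TPM (SD, n = 5 each) in the high-cholesterol groups. The annotated span of Serpina3m begins at the same base as that of Serpina3k (104338486 on chromosome 12), so reads near that start could belong to either gene. Serpina3g (Spi2A, a cathepsin inhibitor also made by blood cells) ranged over 7.09 to 26.6 TPM and its neighbour Serpina3f over 2.68 to 11.4 TPM. Serpina3c, Serpina3h and Serpina3i averaged 1.06, 0.975 and 0.385 TPM, and Serpina3h is annotated as a transcribed pseudogene.

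The pair of hormone carriers keep the serpin fold but do not inhibit proteases. Serpina6 (corticosteroid-binding globulin), which carries glucocorticoids in plasma, averaged 493 ± 155 and 489 ± 197 TPM (SD, n = 5 and 4) in the low-cholesterol Gramd1c+/+ and Gramd1c-/- groups and 594 ± 89.2 and 529 ± 129.8 TPM (SD, n = 5 each) in the high-cholesterol groups. Its difference was -0.02 ± 0.28 (SE, 95% interval -0.60 to 0.57, adjusted p = 0.999) for knockout against wild type on low cholesterol and -0.27 ± 0.26 (SE, 95% interval -0.81 to 0.28, adjusted p = 1) on high cholesterol on the log2 scale. These values were -0.14 ± 0.28 (SE, adjusted p = 0.999) without replicate 2 of the low-cholesterol Gramd1c+/+ mice and -0.15 ± 0.27 (SE, adjusted p = 1) without replicate 5 of the high-cholesterol Gramd1c-/- mice. Serpina7 (thyroxine-binding globulin), which lies on chromosome X, averaged 22.2 ± 9.25 and 29.2 ± 6.81 TPM (SD, n = 5 and 4) in the low-cholesterol Gramd1c+/+ and Gramd1c-/- groups and 12.9 ± 10.1 and 17.5 ± 9.15 TPM (SD, n = 5 each) in the high-cholesterol groups.

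The abundant serpins of coagulation and fibrinolysis were steadier than the hormone carriers, but not alone in this. The within-group SD of log2 CPM was 0.19 for Serpinc1, 0.23 for Serpind1, 0.21 for Serpinf2 and 0.17 for Serpina10, against 0.45 for Serpina6. Abundant serpins of other roles lay on both sides, such as Serping1 at 0.20 and Serpinf1 at 0.24, and Serpina3k at 0.56. Serpinc1 (antithrombin), the main plasma inhibitor of thrombin and factor Xa, averaged 683 ± 83.3 and 640.2 ± 19.2 TPM (SD, n = 5 and 4) in the low-cholesterol Gramd1c+/+ and Gramd1c-/- groups and 622 ± 33.3 and 595 ± 42.9 TPM (SD, n = 5 each) in the high-cholesterol groups. Serpind1 (heparin cofactor II), another thrombin inhibitor, averaged 589 ± 46.8 and 607 ± 23.4 TPM (SD, n = 5 and 4) in the low-cholesterol Gramd1c+/+ and Gramd1c-/- groups and 498 ± 78.7 and 485 ± 121 TPM (SD, n = 5 each) in the high-cholesterol groups. Serpinf2 (alpha-2-antiplasmin), the inhibitor of plasmin, averaged 1027 ± 157 and 1012 ± 56.1 TPM (SD, n = 5 and 4) in the low-cholesterol Gramd1c+/+ and Gramd1c-/- groups and 856 ± 59.1 and 819 ± 179 TPM (SD, n = 5 each) in the high-cholesterol groups. Serpina10, the protein Z-dependent inhibitor of factor Xa, averaged 138 ± 17.7 and 128 ± 10.5 TPM (SD, n = 5 and 4) in the low-cholesterol Gramd1c+/+ and Gramd1c-/- groups and 104 ± 9.27 and 117 ± 13.1 TPM (SD, n = 5 each) in the high-cholesterol groups. Serpine2 (protease nexin 1), which inhibits thrombin and plasminogen activators and is made by many cell types, was low, at 0.553 to 2.41 TPM. It was not steadier, with an SD of 0.54. Serpina5 (protein C inhibitor), which human liver makes, had at most 6 counts in a mouse.

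Serping1 (C1 inhibitor), which controls complement C1 and the contact system, averaged 680.2 ± 62.1 and 740.2 ± 34.8 TPM (SD, n = 5 and 4) in the low-cholesterol Gramd1c+/+ and Gramd1c-/- groups and 653 ± 46.8 and 654 ± 158 TPM (SD, n = 5 each) in the high-cholesterol groups. Serpinf1 (pigment epithelium-derived factor), a serpin with no protease target that limits vessel growth, averaged 765 ± 108 and 708 ± 31.8 TPM (SD, n = 5 and 4) in the low-cholesterol Gramd1c+/+ and Gramd1c-/- groups and 739 ± 95.3 and 639 ± 67.4 TPM (SD, n = 5 each) in the high-cholesterol groups. Serpinf1 and Serpinf2 are neighbours on chromosome 11 (chr11:75409769-75422701 and chr11:75431732-75439591). Serpinh1 (Hsp47), the collagen chaperone of the endoplasmic reticulum, ranged over 14.6 to 27.6 TPM.

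The intracellular clade B serpins were sparse, with 6 of 27 past the filter. Serpinb1a, an inhibitor of neutrophil elastase and related granule proteases, was the highest of them, at 16.02 ± 3.62 and 9.52 ± 3.65 TPM (SD, n = 5 and 4) in the low-cholesterol Gramd1c+/+ and Gramd1c-/- groups and 22.2 ± 9.10 and 26.5 ± 17.8 TPM (SD, n = 5 each) in the high-cholesterol groups. Serpinb9 (the granzyme B inhibitor), Serpinb6a, Serpinb8 and Serpinb6b averaged 8.41, 6.90, 3.31 and 1.87 TPM. The neutrophil marker gene Ly6g had no count in any mouse, and the 6 neutrophil markers summed to at most 8.77 TPM.

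For the knockout, no serpin was called at an adjusted p below 0.05. The edgeR quasi-likelihood test called 0 of the 35 members for knockout against wild type on low cholesterol, beside 0.00666% of the 15016 genes tested. It called 0 on high cholesterol, beside 0.00666%, and 0 with the diets averaged, beside 0.00666%. Members with an unadjusted p below 0.05 numbered 0, 1 and 0 in that order, against 2.66, 2.42 and 2.98% of all genes. DESeq2, limma on log2(TPM + 1) and voom with sample weights also called 0 members in each. The member with the smallest p among them was Serpina1d on high cholesterol, with 4536, 4908, 4897, 4252 and 4190.4 TPM in Gramd1c+/+ and 3935, 3797, 4081, 4589 and 2778 TPM in Gramd1c-/- mice, a log2 difference of -0.34 ± 0.16 (SE, 95% interval -0.68 to -0.01, adjusted p = 1). The ranges of the 2 groups overlapped. Without replicate 5 of the Gramd1c-/- mice, the lowest of them, the difference was -0.27 ± 0.16 (SE), with an unadjusted edgeR p of 0.112.

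Averaged over the diets, the members nearest to a difference were Serpina1d at -0.23 ± 0.12 (SE, 95% interval -0.48 to 0.01, adjusted p = 0.999), Serpina3m at -0.32 ± 0.17 (SE, 95% interval -0.66 to 0.03, adjusted p = 0.999) and Serpinf1 at -0.21 ± 0.11 (SE, 95% interval -0.45 to 0.02, adjusted p = 0.999) on the lower side. For Serpina3m, replicate 5 of the high-cholesterol Gramd1c-/- mice measured 112 TPM, against 262 to 412 TPM in the other 4 of its group. The genotype value of Serpina3m without that mouse is not given here. On the higher side the nearest members were Serpini1 (neuroserpin, the tissue plasminogen activator inhibitor of nerve cells) at 0.58 ± 0.30 (SE, 95% interval -0.06 to 1.22, adjusted p = 0.999), whose level was 0.0205 to 0.138 TPM, and Serpine2 at 0.38 ± 0.25 (SE, 95% interval -0.15 to 0.90, adjusted p = 0.999). Serpini1 had only 2 to 13 counts in a mouse, near the limit of what this depth can measure. On low cholesterol Serpinb1a stood at -0.77 ± 0.44 (SE, 95% interval -1.69 to 0.15, adjusted p = 0.999) and Serpine2 at 0.61 ± 0.36 (SE, 95% interval -0.15 to 1.36, adjusted p = 0.999). On high cholesterol Serpinf1 stood at -0.30 ± 0.15 (SE, 95% interval -0.62 to 0.02, adjusted p = 1) and Serpina3f at 0.52 ± 0.29 (SE, 95% interval -0.09 to 1.14, adjusted p = 1). The Serpina3f value was 0.12 ± 0.24 (SE, adjusted p = 1) without replicate 4 of the Gramd1c-/- mice, which measured 11.4 TPM against 3.40 to 4.48 TPM in the other 4 of its group. Serpina9 (centerin, a serpin of germinal centre B cells) stood on that diet at 1.78 ± 0.98 (SE, 95% interval -0.26 to 3.82, adjusted p = 1), a value set by replicate 5 of the Gramd1c-/- mice with 2.83 TPM against 0.0990 to 0.153 TPM in the other 4. Without that library, which also stood apart on the first principal component, the log2 difference was -0.80. With the diets averaged, the 95% interval lay within a 2-fold change in either direction for 29 of 35 members, and within a 1.5-fold change for 21. The 6 members with wider intervals were Serpina1e, Serpina7, Serpina9, Serpina12, Serpinb9b and Serpini1, and for Serpina1e the interval ran from -0.88 to 2.32.

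For dietary cholesterol, again no serpin was called by edgeR. Counts of called members were 0 of 35 in Gramd1c+/+ mice, beside 0.44% of all genes tested, 0 in Gramd1c-/- mice, beside 0.326%, and 0 with the genotypes averaged, beside 1.3% (0.446% higher and 0.852% lower on high cholesterol). Members with an unadjusted p below 0.05 numbered 3, 4 and 10, or 8.57, 11.4 and 28.6% of the 35, against 7.93, 11.4 and 18.3% of all genes. Averaged over the genotypes, DESeq2 called 2 members (Serpina3c lower and Serpinb1a higher on high cholesterol), voom with sample weights called Serpina3c, and limma on log2(TPM + 1) called 0, beside 3.41, 1.72 and 0.986% of all genes with an adjusted p. Within each genotype these tools called 0.

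Serpina3c had the smallest p. Serpina3c measured 1.29, 1.73, 1.68, 1.47 and 1.11 TPM in the 5 low-cholesterol Gramd1c+/+ mice and 0.749, 1.34, 1.10 and 1.36 TPM in the 4 Gramd1c-/- mice on that diet. On high cholesterol it measured 0.613, 0.836, 0.691, 0.836 and 0.914 TPM in the 5 Gramd1c+/+ and 0.625, 0.795, 0.971, 0.741 and 1.27 TPM in the 5 Gramd1c-/- mice. Every high-cholesterol Gramd1c+/+ mouse lay below every low-cholesterol Gramd1c+/+ mouse, whereas the Gramd1c-/- groups overlapped. The log2 difference between the diets was -0.86 ± 0.23 (SE, 95% interval -1.34 to -0.37, adjusted p = 0.182) in Gramd1c+/+ mice, -0.38 ± 0.25 (SE, 95% interval -0.89 to 0.14, adjusted p = 0.533) in Gramd1c-/- mice and -0.62 ± 0.17 (SE, 95% interval -0.97 to -0.26, adjusted p = 0.0773) averaged. Leaving out replicate 5 of the high-cholesterol Gramd1c-/- mice, the highest of its group, brought the value in Gramd1c-/- mice to -0.59 ± 0.23 (SE, adjusted p = 0.603). The averaged value was then -0.72 with an adjusted p of 0.0172 in edgeR, where 1.42% of all genes were called, and over all settings tried the adjusted p ranged from 0.0172 to 0.172. At this low level, 0.613 to 1.73 TPM over all mice, no window of the transcript was shared with another serpin.

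Serpinb1a lay on the other side. Serpinb1a measured 14.5, 14.1, 20.4, 11.9 and 19.2 TPM in the 5 low-cholesterol Gramd1c+/+ mice and 10.9, 6.87, 6.24 and 14.02 TPM in the 4 Gramd1c-/- mice on that diet. On high cholesterol it measured 9.63, 24.8, 21.3, 20.3 and 34.9 TPM in the 5 Gramd1c+/+ and 24.6, 45.5, 43.6, 12.4 and 6.36 TPM in the 5 Gramd1c-/- mice. Among the high-cholesterol Gramd1c-/- mice 3 lay above every low-cholesterol Gramd1c-/- mouse and 2 lay within their range. The second highest of these, at 43.6 TPM, was replicate 3, the mouse with the high cholangiocyte and exocrine pancreas markers, whose part in the Serpinb1a value was not tested. Summed cholangiocyte markers had medians of 63.6 and 64.1 TPM in the low-cholesterol and 76.1 and 79.6 TPM in the high-cholesterol Gramd1c+/+ and Gramd1c-/- groups. In whole liver a change in the RNA of each cell and a change in the number of cells that carry it cannot be told apart. The log2 difference between the diets was 1.44 ± 0.45 (SE, 95% interval 0.51 to 2.37, adjusted p = 0.288) in Gramd1c-/- mice, 0.50 ± 0.41 (SE, 95% interval -0.35 to 1.35, adjusted p = 0.785) in Gramd1c+/+ mice and 0.97 ± 0.30 (SE, 95% interval 0.34 to 1.60, adjusted p = 0.109) averaged. Without replicate 5 of the high-cholesterol Gramd1c-/- mice, the lowest of its group, the averaged value was 1.09 with an adjusted p of 0.0380, in a range of 0.0317 to 0.290 over all settings. Without replicate 3 of that group the difference was 1.28 ± 0.46 (SE, adjusted p = 0.238) in Gramd1c-/- mice and 0.88 ± 0.30 (SE, adjusted p = 0.123) averaged. The genotype by diet interaction for Serpinb1a was 0.94 ± 0.60 (SE, 95% interval -0.30 to 2.18, adjusted p = 1), so a different response of the genotypes was not shown.

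**Figure D4:**
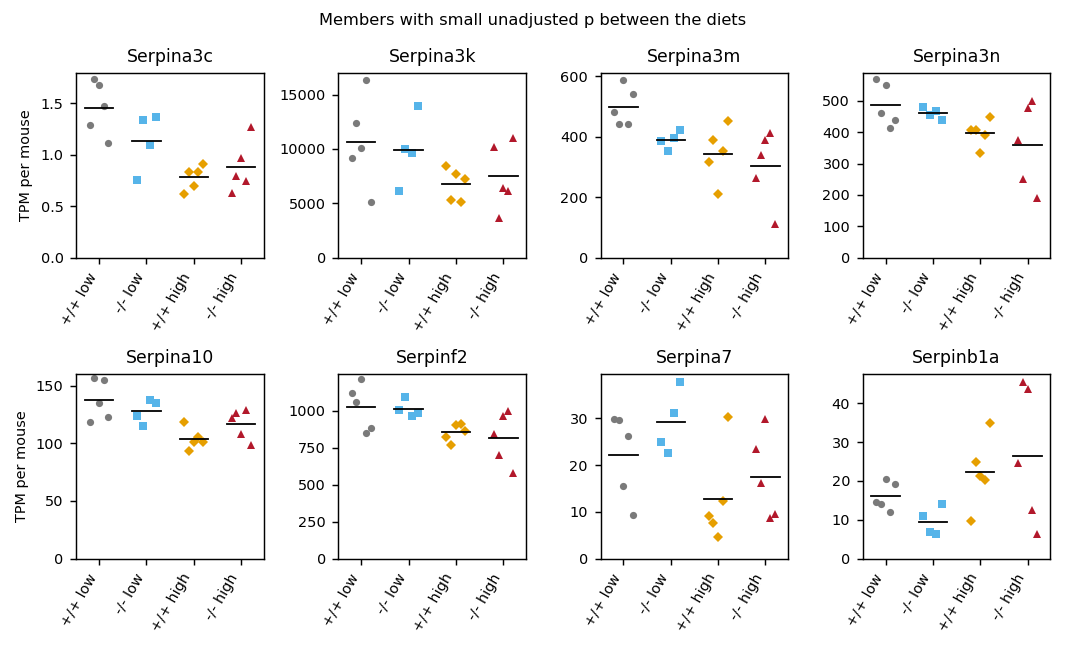
TPM per mouse on linear axes from 0 for 8 serpins with an unadjusted p below 0.05 between the diets, with genotype and diet along the bottom, points for mice and black lines for group means. Serpina3c and Serpina3m lie lower on high cholesterol and Serpinb1a higher in the group means, with overlap of single mice.

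Several abundant plasma serpins had lower means on high cholesterol, though none was called. The 8 hepatocyte markers, albumin among them, also summed to less on that diet. Their medians were 106383 and 110286 TPM in the low-cholesterol and 85124 and 92910 TPM in the high-cholesterol Gramd1c+/+ and Gramd1c-/- groups, with mice from 91866 to 124739 TPM on low and from 74609 to 105719 TPM on high cholesterol. Across all mice albumin lay at 44237 to 91159 TPM and Apoa1, another of the 8, at 7432 to 27238 TPM. The sum mostly follows these genes and does not show a fall of the other markers. The part of the 8 markers in the serpin values was not tested. Averaged over the genotypes, Serpina3k stood at -0.49 ± 0.23 (SE, 95% interval -0.97 to -0.01, adjusted p = 0.266), Serpina3m at -0.47 ± 0.16 (SE, 95% interval -0.81 to -0.12, adjusted p = 0.154) and Serpina3n at -0.34 ± 0.13 (SE, 95% interval -0.62 to -0.06, adjusted p = 0.196). Serpina3m measured 482, 443, 586, 440.5 and 541 TPM in the 5 low-cholesterol Gramd1c+/+ mice and 385, 352, 395 and 422 TPM in the 4 Gramd1c-/- mice on that diet. On high cholesterol it measured 316, 388, 209, 352 and 450.0 TPM in the 5 Gramd1c+/+ and 262, 338, 389.9, 412 and 112 TPM in the 5 Gramd1c-/- mice. Replicate 5 of the last group was the lowest of all mice for Serpina3m and Serpina3n, and without it the averaged diet differences were -0.37 for Serpina3m (adjusted p = 0.126) and -0.27 for Serpina3n (adjusted p = 0.275). Among the coagulation serpins Serpinf2 stood at -0.28 ± 0.10 (SE, 95% interval -0.50 to -0.07, adjusted p = 0.169), Serpind1 at -0.28 ± 0.11 (SE, 95% interval -0.51 to -0.06, adjusted p = 0.172) and Serpina10 at -0.25 ± 0.09 (SE, 95% interval -0.43 to -0.07, adjusted p = 0.149), differences of small size in genes of small spread. Serpinf2 (577 TPM) and Serpind1 (280 TPM) were also lowest of all mice in replicate 5 of the high-cholesterol Gramd1c-/- group. Without that mouse their values were -0.24 (adjusted p = 0.257) and -0.22 (adjusted p = 0.201). For Serpina10 the difference was -0.35 ± 0.12 (SE, 95% interval -0.60 to -0.10, adjusted p = 0.409) in Gramd1c+/+ mice, where the 5 mice on high cholesterol measured 118, 93.1, 101, 106 and 101 TPM against 118, 157, 135, 155 and 123 TPM, and -0.15 ± 0.13 (SE, 95% interval -0.41 to 0.12, adjusted p = 0.62) in Gramd1c-/- mice. Serpinc1, by contrast, stood at -0.11 ± 0.10 (SE, 95% interval -0.32 to 0.10, adjusted p = 0.552) and Serping1 at -0.12 ± 0.10 (SE, 95% interval -0.33 to 0.09, adjusted p = 0.528).

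With all 19 mice, Serpina12 and Serpina7 had the lowest averaged log2 differences between the diets. Serpina7 measured 29.96, 29.7, 15.6, 26.3 and 9.33 TPM in the 5 low-cholesterol Gramd1c+/+ mice and 24.9, 22.7, 31.2 and 37.8 TPM in the 4 Gramd1c-/- mice on that diet. On high cholesterol it measured 9.21, 7.68, 4.70, 12.3 and 30.3 TPM in the 5 Gramd1c+/+ and 23.4, 16.1, 29.97, 8.63 and 9.56 TPM in the 5 Gramd1c-/- mice. The averaged difference of Serpina7 was -0.78 ± 0.29 (SE, 95% interval -1.38 to -0.18, adjusted p = 0.169). Replicate 5 of the high-cholesterol Gramd1c+/+ mice was the highest mouse on that diet, and without it the value was -1.06 with an adjusted p of 0.0333, in a range of 0.0333 to 0.319 over all settings. Serpina12 stood at -0.87 ± 0.41 (SE, 95% interval -1.74 to -0.01, adjusted p = 0.269), with levels of 2.32 to 25.00 TPM, and at -1.28 (adjusted p = 0.0972) without replicate 5 of the high-cholesterol Gramd1c-/- mice. Serpina9 stood at -0.61 ± 0.68 (SE, 95% interval -2.04 to 0.81, adjusted p = 0.638), and without that mouse at -1.91 ± 0.51 (SE, adjusted p = 0.0764), below Serpina12. Serpina7 then stood at -0.71 ± 0.29 (SE, adjusted p = 0.266). The other hormone carrier, Serpina6, stood at 0.19 ± 0.19 (SE, 95% interval -0.21 to 0.59, adjusted p = 0.594). Besides Serpinb1a, the members nearest to a higher value on high cholesterol were Serpina3h at 0.52 ± 0.36 (SE, 95% interval -0.23 to 1.27, adjusted p = 0.746) in Gramd1c+/+ mice and Serpina3g at 0.49 ± 0.28 (SE, 95% interval -0.10 to 1.09, adjusted p = 0.492) in Gramd1c-/- mice. Without replicate 4 of the high-cholesterol Gramd1c-/- mice the Serpina3g value was 0.14 ± 0.23 (SE, adjusted p = 0.783).

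The averaged diet differences of the Serpina1 paralogs were 0.06 ± 0.17 (SE, 95% interval -0.30 to 0.41, adjusted p = 0.874) for Serpina1a, -0.11 ± 0.10 (SE, 95% interval -0.31 to 0.09, adjusted p = 0.552) for Serpina1b, -0.02 ± 0.17 (SE, 95% interval -0.38 to 0.34, adjusted p = 0.96) for Serpina1c and -0.22 ± 0.12 (SE, 95% interval -0.46 to 0.02, adjusted p = 0.316) for Serpina1d. Serpina1e stood at -0.11 ± 0.77 (SE, 95% interval -1.72 to 1.49, adjusted p = 0.95), too wide to limit a change. Without replicate 5 of the high-cholesterol Gramd1c-/- mice Serpina1a turned to -0.04 ± 0.16 (SE, adjusted p = 0.923), and Serpina1c stood at -0.14 ± 0.15 (SE, adjusted p = 0.714) and Serpina1e at -0.51 ± 0.77 (SE, adjusted p = 0.801). Without replicate 2 of the low-cholesterol Gramd1c+/+ mice Serpina1e turned to 0.14 ± 0.79 (SE, adjusted p = 0.934) and Serpina1c stood at -0.04 ± 0.18 (SE, adjusted p = 0.915). Without replicate 3 of the high-cholesterol Gramd1c-/- mice Serpina1a stood at 0.12 ± 0.16 (SE), Serpina1c at 0.04 ± 0.17 (SE) and Serpina1e at 0.03 ± 0.77 (SE). Averaged over the genotypes, the 95% interval lay within a 2-fold change for 28 of 35 members and within a 1.5-fold change for 18. Of the 35 members 21 had a negative value, with a median log2 difference of -0.02, beside 0.02 over all genes tested.

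**Figure D5:**
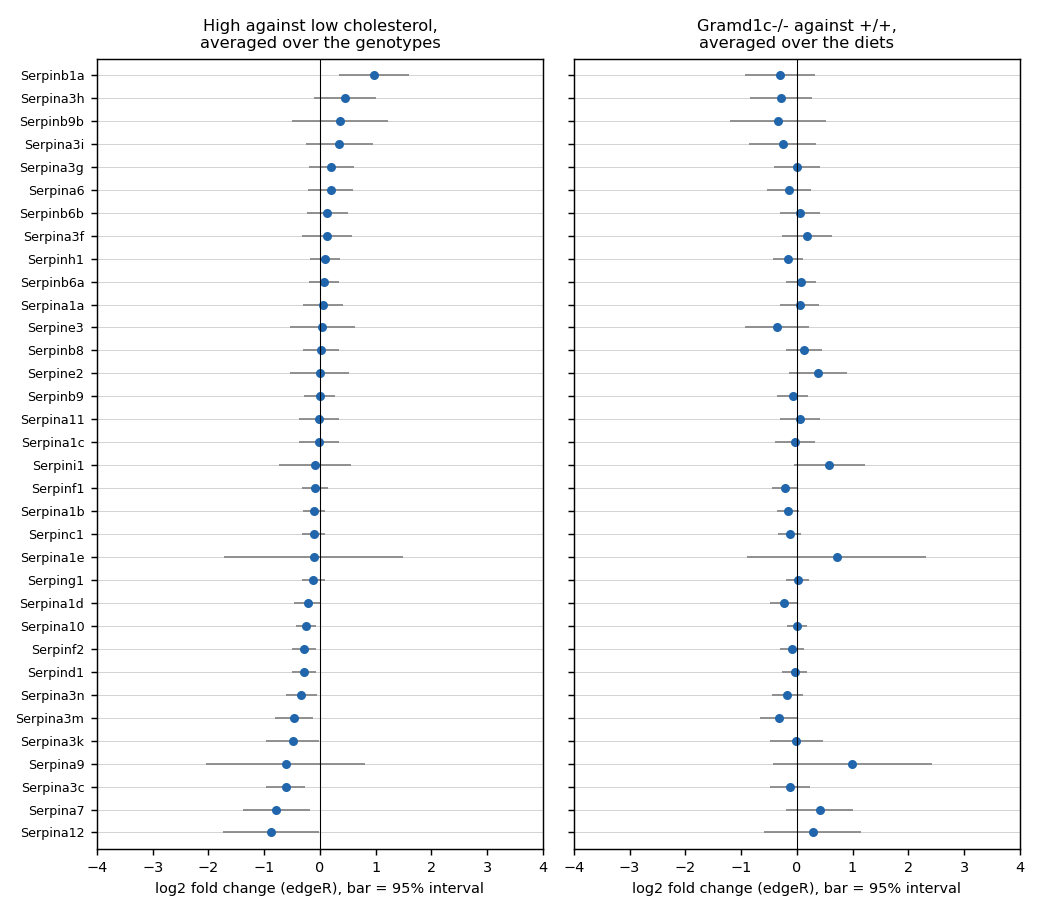
log2 fold changes from edgeR (points) with 95% intervals (bars) for 34 of the 35 tested serpins, for high against low cholesterol averaged over the genotypes (left) and Gramd1c-/- against Gramd1c+/+ averaged over the diets (right), in the order of the diet values. In the left panel Serpinb1a lies highest and Serpina12 lowest, and Serpina1e and Serpina9 have the widest bars in both panels.

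No serpin was called for the genotype by diet interaction, 0 of 35 beside 0% of all genes, and 0 members had an unadjusted p below 0.05, against 1.66% of all genes. DESeq2, limma and voom also called 0. After Serpinb1a, the members nearest to an interaction were Serpina3f at 0.66 ± 0.43 (SE, 95% interval -0.24 to 1.56, adjusted p = 1) and Serpina3g at 0.58 ± 0.39 (SE, 95% interval -0.23 to 1.40, adjusted p = 1). Both rest on replicate 4 of the high-cholesterol Gramd1c-/- mice, and without it they were 0.26 ± 0.34 (SE, adjusted p = 0.999) and 0.23 ± 0.31 (SE, adjusted p = 0.999). On the negative side stood Serping1 at -0.20 ± 0.20 (SE, 95% interval -0.62 to 0.22, adjusted p = 1) and Serpina1d at -0.22 ± 0.23 (SE, 95% interval -0.71 to 0.26, adjusted p = 1). Serping1 was -0.30 ± 0.19 (SE) without that mouse, and Serpina1d was -0.13 ± 0.22 (SE) without replicate 2 of the low-cholesterol Gramd1c+/+ mice. The intervals were wide, and 17 of 35 lay within a 2-fold change.

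Genes that act with the serpins were read from fixed lists. Over all genes tested, 0.00666% were called for genotype and 1.3% for diet in the averaged comparisons. At these shares an absence of calls in short lists says little about the listed genes. None of 12 coagulation and fibrinolytic proteases (such as thrombin, F2, and plasmin, Plg), none of 4 complement proteases and none of 6 measured leukocyte and intracellular proteases was called for genotype or diet, averaged. The 14 transcription factors and receptors of hepatocyte serpin genes, such as Stat3, likewise held no call. Of 8 partners and clearance factors, Lman1 (ERGIC-53, a cargo receptor that carries secreted glycoproteins, alpha-1-antitrypsin among them, out of the endoplasmic reticulum) fell on high cholesterol, by 0.42 on the log2 scale (SE 0.09, edgeR adjusted p = 0.0237). Among 17 acute phase proteins Orm3 rose by 1.26 (SE 0.28, adjusted p = 0.0283) and Itih3 fell by 0.48 (SE 0.10, adjusted p = 0.0222), and the other 15 were not called. With each mouse left out in turn, the log2 difference ran from -0.45 to -0.38 for Lman1 and from -0.53 to -0.42 for Itih3. For Orm3 it ran from 1.10 to 1.42. Whether these calls passed the threshold depended on which mouse was left out. Leaving out replicate 2 or 3 of the low-cholesterol Gramd1c-/- mice or replicate 2 of the high-cholesterol Gramd1c+/+ mice ended all 3, with adjusted p of 0.0504 to 0.0640 for Lman1, 0.0659 to 0.0887 for Orm3 and 0.0533 to 0.0630 for Itih3. The Lman1 call also ended without replicate 1 (0.0546) or 3 (0.0502) of the low-cholesterol Gramd1c+/+ or replicate 4 (0.0621) of the low-cholesterol Gramd1c-/- mice, and the Orm3 call without replicate 4 of the low-cholesterol Gramd1c+/+ mice (0.0530). Medians of the averaged diet differences were -0.12 for the coagulation proteases and 0.05 for the acute phase proteins, beside 0.02 for all genes.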

How the data were processed

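The authors deposited raw read counts per Ensembl gene, with gene lengths, for each of 19 mouse livers, 1 library per mouse. The values were whole numbers and not normalized. The submitters' processing notes name STAR 2.5.2b and GRCm38. For the counting tool, strand setting and annotation release, a statement is not given in the sources used here. Symbols were found by identifier for 48970 of 49315 genes. The paper describes poly(A) libraries read as 150-base pairs.

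Counts were tested with edgeR 4.0.16 (R 4.3.3) using TMM library sizes, filterByExpr by group (minimum count 10), a coefficient for each of the 4 groups in a single model, and quasi-likelihood F tests, with Benjamini-Hochberg adjustment over 15016 genes and a threshold of 0.05. All adjusted p-values are from this test unless another tool is named. The test was also run on simulated counts with planted diet differences and the same spread for every gene. That setting does not cover genes of wider spread, such as Serpina1e. SEs were derived from the log2 fold change and the F statistic. TPM was computed from counts and lengths. DESeq2 1.42.0 and limma 3.58.1 served as alternatives, and Python 3.11.15 with numpy 2.4.6, pandas 2.3.3, scipy 1.17.1 and matplotlib 3.10.9 as further tools.

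The members with values were those called in any comparison, the 2 with the smallest p in each direction per comparison, the 12 with the highest mean TPM, and all tested members among hormone carriers, coagulation, complement, Serpinh1 and Serpinf1. Some genes that this rule selects are left out here. Others were chosen after their values were seen. Members and lists were chosen with earlier results of these data known. With 27 pairs of the same replicate number, the mean correlation of residuals was -0.069 (range -0.35 to 0.29). With 108 pairs of different numbers it was 0.017 (range -0.42 to 0.39). Mice of the same number thus did not deviate together on average. The labels do not say what the numbers stand for, so whether they mark a pairing is unknown.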

Additional observations from a re-analysis of the deposited data

Results flagged for a closer look

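In 25 serpins, 100 combinations of gene and group were checked for a mouse far from the rest of its group by Dixon's ratio, and 5 were found, where chance gives about 1 in 20. Serpina9 measured 2.83 TPM in replicate 5 of the high-cholesterol Gramd1c-/- mice, against 0.0990 to 0.153 TPM in the other 4, and this library also stood apart over all genes. Replicate 4 of the same group was the highest of it for Serpina3f, at 11.4 TPM against 3.40 to 4.48, and for Serpina3g, at 26.6 TPM against 8.33 to 13.6. In that mouse the 8 Kupffer cell and macrophage markers summed to 1022 TPM, against 217 to 563 TPM in the other 18, and their part in the Serpina3f and Serpina3g values was not tested. Serpine2 was the highest of the high-cholesterol Gramd1c+/+ mice in replicate 1, at 2.38 TPM against 0.804 to 1.18. Serpinh1 in replicate 1 of the high-cholesterol Gramd1c-/- mice measured 19.9 TPM against 18.1 to 18.5, where the whole group lay within a narrow range.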

How the results depend on the processing

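The count of called serpins stayed at 0 for genotype on either diet or averaged, for diet within each genotype and for the interaction under every alternative, including DESeq2, RLE scaling, TMM without Mup, mitochondrial and serpin genes, other filters, only the groups compared, limma and voom. For diet averaged over the genotypes the count was 2 with DESeq2, 1 with voom sample weights and 1 with both libraries that stood apart left out (chosen after seeing the data), beside 600, 259 and 212 called genes in all (3.41, 1.72 and 1.43% of those with an adjusted p), and 0 to 2 with each mouse left out. It was 2 without replicate 5 of the high-cholesterol Gramd1c-/- mice and 1, Serpina7, without replicate 5 of the Gramd1c+/+ mice on that diet, beside 212 and 199 genes in all. The replicate block gave 0 called serpins in all 7 comparisons and changed no call of a serpin. With it the adjusted p was 0.0907 for Lman1, 0.0718 for Itih3 and 0.137 for Orm3, and with limma it was 0.123 for Lman1 and 0.0713 for Itih3. For Serpina3c in the averaged diet comparison the adjusted p was 0.0351 with DESeq2, 0.0235 with voom and 0.0289 without both libraries, and for Serpinb1a it was 0.0317 with DESeq2. The log2 difference of Serpina9 between the genotypes on high cholesterol turned from 1.78 to -0.11 with voom sample weights and to -0.80 without both libraries, and with each mouse left out it ranged from -0.80 to 2.72. The causes of these differences were not tested beyond the libraries left out. Of the recomputed log2 differences of named serpins 786 kept their direction and their side of the threshold, 6 passed the threshold and 3 reversed. Depth limits the 28 serpins with at most 12 counts in a mouse, about which no difference can be stated.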

Other observations

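The mouse-to-mouse spread of Serpina1e was followed across the liver transcriptome after its values were seen. Log2 CPM was taken as the deviation from the mean of each group, and each of the 15015 other tested genes was compared with Serpina1e over the 19 mice by Pearson's r, Spearman's rho and 100000 permutations within groups. The same was done for Serpina12, Serpinb1a, Serpina7 and Serpina3k, so that 5 families were computed, each adjusted over its own 15015 genes. The smallest p these permutations can give is 1e-05, so that 1 gene alone at that p would reach an adjusted p of 0.15. All values below are descriptions.

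Serpina1e went with Enho, the gene of the peptide hormone adropin, at r = 0.90 and rho = 0.90 (permutation p = 1e-05 and 2e-05, adjusted p = 0.1), and at r = 0.86 without the 2 mice farthest from its median. Serpina1e went with Slco1a1, an organic anion transporter of the hepatocyte membrane that is higher in male liver, at r = 0.89 and rho = 0.90 (permutation p = 2e-05 and 3e-05, adjusted p = 0.1), and at r = 0.90 without the 2 mice farthest from its median. Serpina1e went against Acad10, an acyl-CoA dehydrogenase gene, at r = -0.88 and rho = -0.91 (permutation p = 0.00013 and 9e-05, adjusted p = 0.244), and at r = -0.86 without the 2 mice farthest from its median. No gene passed an adjusted p of 0.05 for Serpina1e. Among the other serpins it went with Serpina1c (r = 0.80, rho = 0.73, permutation p = 0.00285 and 0.00854, adjusted p = 0.334), which shares transcript windows with its paralogs, and against Serpinb1a (r = -0.68, rho = -0.72, permutation p = 0.00772 and 0.00255, adjusted p = 0.375).

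Serpinb1a went with Sult2a2, a hydroxysteroid sulfotransferase that is higher in female liver, at r = 0.87 and rho = 0.78 (permutation p = 0.00021 and 0.00168, adjusted p = 0.51), and at r = 0.80 without the 2 mice farthest from its median. Sult2a1 and Sult2a5, near-identical relatives whose reads may be split among them, followed with r of 0.85 and 0.86. Serpinb1a went against C6, a complement component, at r = -0.88 and rho = -0.75 (permutation p = 0.00034 and 0.0028, adjusted p = 0.51), and at r = -0.81 without the 2 mice farthest from its median. Serpina3k went with Serpina11, another gene of the clade A cluster on chromosome 12, at r = 0.86 and rho = 0.84 (permutation p = 0.00012 and 0.0004, adjusted p = 0.134), and at r = 0.82 without the 2 mice farthest from its median. No gene passed an adjusted p of 0.05 for Serpinb1a, Serpina7 or Serpina3k. For Serpina12 4 genes passed an adjusted p of 0.05, among them Cnrip1 (r = 0.85, rho = 0.81, permutation p = 1e-05 and 8e-05, adjusted p = 0.0375, 0.88 without the 2 farthest mice).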
